A study of Homo sapiens with 16 samples.

Results

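DGAT depletion and hypoxia were applied together to A498, a cell line from human kidney cancer of the clear cell type, and the resulting mRNA levels were set against those of cells that received neither. Every culture carried inducible hairpins that doxycycline switches on, 1 against DGAT1 and 1 against DGAT2 (DGAT shRNA), and every culture was kept in low serum. The compared groups were vehicle in normoxia (4 arrays) and doxycycline in hypoxia at 0.5% O2 (4 arrays), chosen by their titles, so that 8 of the 16 arrays of the series entered the comparison. Vehicle or doxycycline was given for 5 days, and the O2 level was set for 2 days before RNA was extracted. The other 8 arrays, doxycycline in normoxia and vehicle in hypoxia, served only to state how far each combined change equalled the sum of the single changes. As a model the groups have limits: there was 1 hairpin per gene, the cells were drug-selected for both constructs, and the control received vehicle, so that doxycycline itself and the hairpins cannot be told apart.

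DGAT1 and DGAT2 catalyse the last step of triglyceride synthesis and so feed lipid droplets, the stores that give clear cell renal cell carcinoma its name. In low O2 the prolyl hydroxylases that mark HIF-α for VHL-mediated destruction lose their substrate, and HIF then turns on genes for glucose use, blood vessel growth and matrix remodelling. A498 cells lack functional VHL, so HIF target genes are already active in normoxia. Stearoyl-CoA desaturase (SCD), which makes oleate, also needs O2, which links the supply of unsaturated fatty acids to both treatments.

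Values are on the deposited log2 scale, on which 1 unit is a 2-fold difference in array signal. The values ran from 1.71 to 19.85, and those above 16 exceed what a 16-bit scanner can give, so fold sizes hold on this scale only. A498 markers were present: the kidney lineage factor PAX8 had a mean level of 11.10 in vehicle normoxia, and KRT18, KRT8 and VIM lay between 14.12 and 15.26, where the median gene had 4.89. PAX2 had 5.90. PTPRC, which marks leukocytes, had 3.36 and PECAM1, which marks endothelium, 2.96, and 3 of 19 leukocyte and 1 of 20 endothelial or fibroblast markers exceeded the median gene. The arrays of a group are labelled biological replicates without a statement of how the cultures were kept apart, so the p-values measure the spread between these samples only. A single axis held 63.3% of the variance within groups. Vehicle normoxia replicate 1 (score -38.4) and doxycycline hypoxia replicate 4 (score -22.0) had the lowest scores of their groups. The highest score of all arrays was that of vehicle hypoxia replicate 4 (57.7), which enters every sum of the single changes.

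The targeted genes came first. DGAT1 had levels of 6.86, 6.67, 6.77 and 6.99 in vehicle normoxia and of 5.28, 5.10, 5.19 and 5.18 in doxycycline hypoxia. All 4 treated arrays lay below all 4 controls, and the mean fell by 1.64 ± 0.09 (SE, n = 4 per group) on the log2 scale, which left 32.2% of the control signal (limma adjusted p = 2.74e-08). DGAT2 had levels of 7.18, 6.93, 7.08 and 6.95 in vehicle normoxia and of 5.06, 5.22, 5.14 and 5.08 in doxycycline hypoxia. Its groups did not overlap either, and 26.5% of the signal remained (log2 change -1.92 ± 0.10, limma adjusted p = 1.7e-08). An exact two-sided permutation test of 4 against 4 arrays gave p = 0.0286 for each gene, the smallest value that 70 arrangements allow. The sum of the single changes was -2.02 for DGAT1 and -2.35 for DGAT2, so that the combined decreases were smaller than the sums by 0.39 (95% interval 0.12 to 0.66) and 0.43 (0.14 to 0.72). In these bulk samples fewer cells with a transcript and less of it per cell cannot be told apart. Neither difference passed the adjustment over all genes (limma adjusted p = 0.956 for both). With doxycycline both genes lay near the median gene (4.89). The mean of DGAT1 was 5.11 in normoxia and 5.18 in hypoxia, and that of DGAT2 was 5.21 and 5.12. Whether such low levels limit a further decrease, and with it the sums and the percentages that remained, was not tested.

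Over 22411 genes, the combination changed 4772 at an adjusted p under 0.05 (limma), which is 21.3%. Of these, 1719 were higher (7.67% of all genes) and 3053 lower (13.6%). The decreases outnumbered the increases, but with each array centred on its own median the split moved to 1969 higher and 2294 lower, since the median gene shifted by -0.04 on the log2 scale. Among changes of at least 1.5-fold, 617 genes rose and 564 fell, and among those of at least 2-fold increases outnumbered decreases, with 172 against 81. The arrays of the groups did not overlap for 4128 of the 4772 genes, and for 5791 of all 22411 (25.8%). A small p and separated arrays go together, so the first count adds no evidence of its own.

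The largest increases were in STC1, CLEC4E and IL7R. The 12 largest changes per direction were taken from genes whose groups did not overlap, so their separation is no further evidence. STC1, the secreted glycoprotein stanniocalcin 1, had levels of 9.74, 10.30, 10.15 and 10.01 in vehicle normoxia and of 13.18, 13.31, 13.42 and 13.32 in doxycycline hypoxia. Every treated array was far above every control, a 9.58-fold increase (log2 change 3.26 ± 0.12, limma adjusted p = 3.51e-10). CLEC4E, a C-type lectin receptor for glycolipids (Mincle), rose from 6.17, 6.60, 6.26 and 6.38 to 9.40, 9.86, 9.49 and 9.64. Its 9.47-fold increase (3.24 ± 0.10, adjusted p = 1.43e-10) likewise separated the groups completely. IL7R, the interleukin-7 receptor α chain, had 5.21, 5.48, 5.55 and 5.48 in vehicle normoxia and 7.77, 7.87, 7.80 and 7.65 in doxycycline hypoxia. It was 5.07-fold higher (2.34 ± 0.10, adjusted p = 2.33e-09).

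The other 9 of the 12 largest increases ran from 1.71 to 2.32 on the log2 scale. SLCO2B1, an organic anion transporter, rose 4.99-fold (2.32 ± 0.20), and SLC4A4, a sodium bicarbonate cotransporter, rose 3.27-fold (1.71 ± 0.21). ABCA1, the cholesterol exporter, had 9.20, 9.86, 9.42 and 9.48 in vehicle normoxia and 11.24, 11.69, 11.05 and 10.92 in doxycycline hypoxia. The lowest treated array was above the highest control, and the change was 1.73 ± 0.19 (adjusted p = 2.44e-05). F3, tissue factor, which starts blood clotting, rose by 1.94 ± 0.10 (adjusted p = 1.78e-08), and ITGA1, a collagen-binding integrin chain, by 1.93 ± 0.26 (0.000142). ANGPTL4, a secreted inhibitor of lipoprotein lipase, rose by 1.73 ± 0.41 (0.00775), PAQR5, a membrane progestin receptor, by 1.87 ± 0.39 (0.00347), and PREX2, a Rac exchange factor, by 1.84 ± 0.36 (0.00203). EEA1, an early endosome tether, stood at 6.24, 6.69, 6.71 and 6.84 in vehicle normoxia and at 9.65, 8.91, 8.26 and 7.11 in doxycycline hypoxia. The treated arrays followed the order of their axis scores (30.4, 22.2, 7.4 and -22.0), and the increase of 1.86 ± 0.63 (adjusted p = 0.0475) missed the threshold in 12 of 16 fits with 1 array fewer, where the limma adjusted p reached 0.148 without doxycycline hypoxia replicate 1. With the axis score as a covariate, a fit chosen after seeing the data, the increase was 0.82 and did not pass (limma adjusted p = 0.0562).

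**Figure D1:**
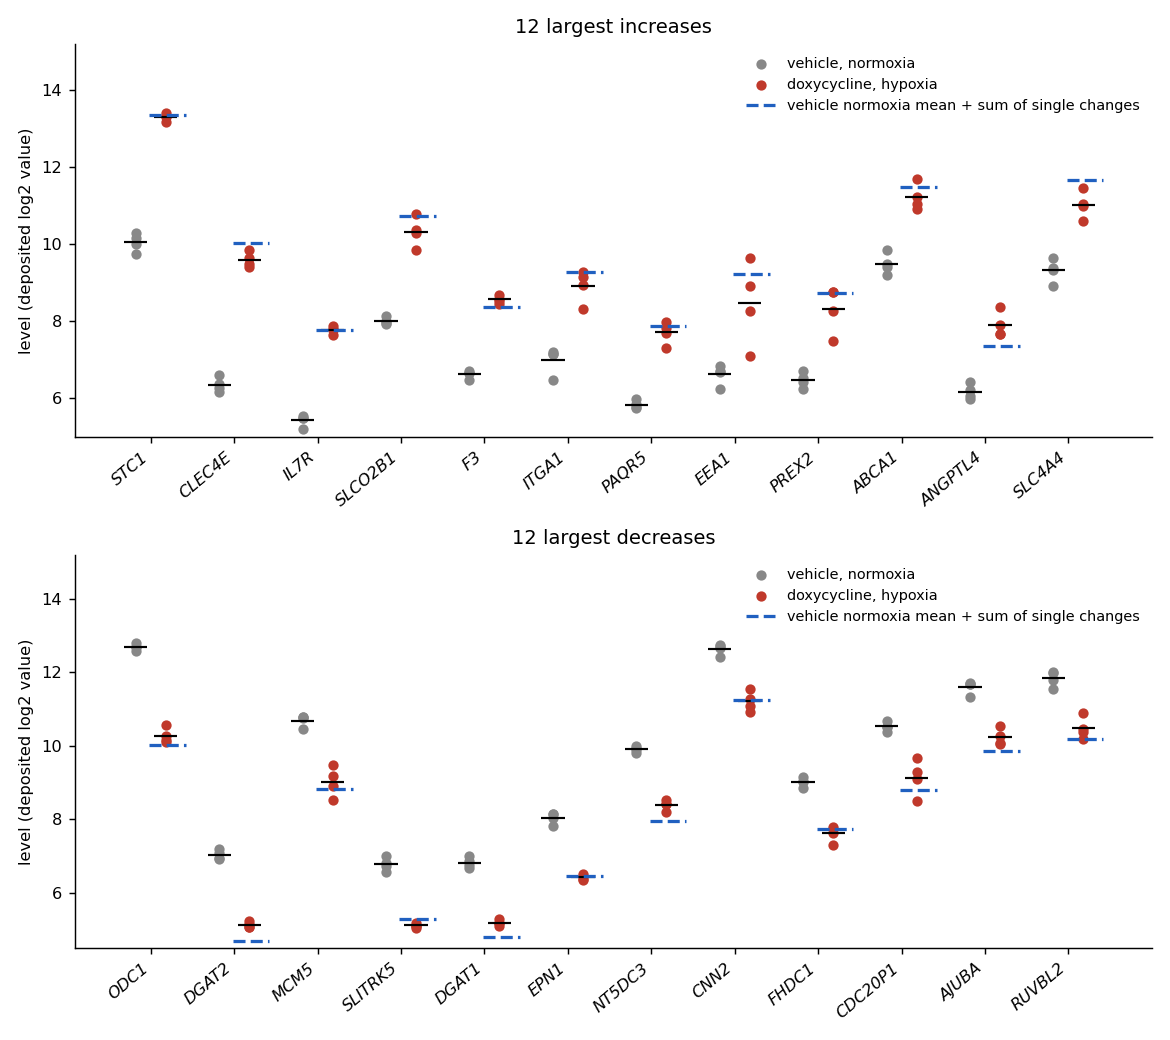
Levels (deposited log2 values, y axis) of the 12 genes with the largest increases (top) and the 12 with the largest decreases (bottom) in each of the 4 vehicle normoxia arrays (grey) and 4 doxycycline hypoxia arrays (red), with short black lines at group means and dashed blue lines where the sum of the single changes would place the doxycycline hypoxia mean. The groups do not overlap for any of the 24 genes, by the way they were chosen, and the dashed line falls close to the red mean for STC1 (3.30 against 3.26) and above it for CLEC4E (3.68 against 3.24).

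ODC1, the first enzyme of polyamine synthesis, showed the largest decrease. Its levels were 12.80, 12.59, 12.69 and 12.69 in vehicle normoxia and 10.16, 10.12, 10.28 and 10.57 in doxycycline hypoxia. The groups stood 5.32-fold apart (log2 change -2.41 ± 0.13, limma adjusted p = 1.78e-08). The targeted DGAT2 and DGAT1 also ranked among the largest decreases, beside MCM5, a subunit of the replicative helicase (-1.67 ± 0.17), and SLITRK5, a transmembrane protein of neurons (-1.67 ± 0.14). MCM5 had 10.78, 10.45, 10.75 and 10.79 in vehicle normoxia and 8.53, 9.17, 8.90 and 9.48 in doxycycline hypoxia, a clear separation with a wider spread in the treated arrays. Other decreases were in EPN1, an endocytic adaptor (-1.61 ± 0.13), NT5DC3 (-1.51 ± 0.08), CNN2, an actin-binding calponin (-1.43 ± 0.13), and FHDC1, a formin (-1.40 ± 0.13). AJUBA, a LIM-domain scaffold of cell junctions, fell by 1.38 ± 0.16 and RUVBL2, an ATPase of chromatin remodelling complexes, by 1.36 ± 0.16. CDC20P1 fell by 1.39 ± 0.22, but it is a pseudogene whose probes may also read CDC20, the activator of the anaphase-promoting complex.

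Established HIF target genes moved up as a group. Of 45 measured, 22 rose, 0 fell and 23 did not pass the test, where 7.67% of all genes rose, and their median change was 0.38 against -0.04 for all genes. Leaving out any 1 array kept the number that rose between 19 and 27. Their mean level was 9.10 to 9.31 over the vehicle normoxia arrays and 9.63 to 9.71 over the doxycycline hypoxia arrays, without overlap. STC2, a stanniocalcin, had 7.92, 7.99, 7.99 and 7.96 in vehicle normoxia and 8.88, 8.82, 8.85 and 8.86 in doxycycline hypoxia (0.89 ± 0.07, limma adjusted p = 1.29e-06). TMEM45A, a transmembrane protein, rose by 0.99 ± 0.09 (5.61e-06). HILPDA, which inhibits the lipase ATGL on lipid droplets, had 6.5, 6.70, 6.88 and 6.73 in vehicle normoxia and 7.17, 7.14, 7.29 and 7.40 in doxycycline hypoxia, a 1.46-fold increase with no overlap (0.55 ± 0.10, 0.0012). Chosen after their values were seen, ADM, the vasodilator adrenomedullin, rose by 1.08 ± 0.12 and VEGFA, the vascular growth factor, by 0.40 ± 0.07. Members that did not pass, also named after their values were seen, included BNIP3 (-0.14) and ANKRD37 (0.09).

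HIF binds a core of ACGTG or GCGTG, and promoters of 3 HIF targets that rose are shown for the position of this core. CXCR4, the receptor of the chemokine CXCL12, rose from 7.37, 7.63, 7.55 and 7.56 to 8.76, 9.12, 9.15 and 9.56 (1.62 ± 0.19, limma adjusted p = 3.81e-05). LOX, which crosslinks collagen, rose by 0.85 ± 0.11 (9.28e-05) and IGFBP3, a binder of insulin-like growth factors, by 0.90 ± 0.13 (0.000268). Among HIF targets that rose and have a match within 100 bases of the start, these 3 are from those with the smallest p. The 100 bases before the annotated start (RefSeq, GRCh38.p14), written 5′ to 3′ on the gene's strand with the core on either strand in capitals, are at chr2:136118150-136118249 (minus strand) for CXCR4, chr5:122078260-122078359 (minus strand) for LOX and chr7:45921273-45921372 (minus strand) for IGFBP3.
CXCR4: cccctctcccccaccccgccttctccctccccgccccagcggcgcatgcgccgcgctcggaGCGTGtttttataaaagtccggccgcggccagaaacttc
LOX: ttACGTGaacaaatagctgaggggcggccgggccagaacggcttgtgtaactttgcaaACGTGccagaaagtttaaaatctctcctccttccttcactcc
IGFBP3: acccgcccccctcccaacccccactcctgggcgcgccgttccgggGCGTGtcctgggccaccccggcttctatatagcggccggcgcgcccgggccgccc
Within 250 bases before the start the core was found for 26 of 31 HIF targets with an entry (83.9%), for 14 of 16 that rose and 12 of 15 that did not pass, and for 50.3% of all 13473 measured genes with an entry. A match of these letters is a description of the sequence and not evidence of binding.

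Glycolysis did not move as a block. Of 23 measured genes, 4 rose (17.4%, where 7.67% of all genes rose) and 4 fell (17.4%, where 13.6% fell), with a median of -0.03. HK2, the hexokinase that traps glucose, had 7.27, 7.50, 7.41 and 7.47 in vehicle normoxia and 8.77, 8.87, 8.89 and 8.98 in doxycycline hypoxia. This 2.76-fold increase (1.47 ± 0.13, limma adjusted p = 4.73e-06) left a wide gap between the groups. SLC2A3, the glucose transporter GLUT3, rose 2.22-fold (1.15 ± 0.11, 1.01e-05). PFKL, the liver phosphofructokinase, fell by 0.58 ± 0.10 (0.000818), and ENO1, an enolase, by 0.30 ± 0.07 (0.00672). The ENO1 call was lost with the mean of its probe sets (-0.35, limma adjusted p = 0.0506) and when quantile normalization was applied again (-0.14, 0.0867).

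Lipid genes responded one by one. Of 39 genes of triglyceride synthesis and lipid droplets, 7 rose (17.9%) and 4 fell (10.3%), DGAT1 and DGAT2 among the latter, and the median was -0.06. Of all genes 7.67% rose and 13.6% fell. SOAT1, which esterifies cholesterol for storage, had 11.62, 12.09, 12.06 and 12.01 in vehicle normoxia and 13.21, 13.13, 13.13 and 12.98 in doxycycline hypoxia (1.17 ± 0.11, limma adjusted p = 7.76e-06). G0S2, another inhibitor of ATGL, rose 1.90-fold (0.93 ± 0.13, 0.000142). PLIN2, the main lipid droplet coat protein, had 12.20, 11.94, 12.17 and 12.09 in vehicle normoxia and 12.34, 12.42, 12.46 and 12.74 in doxycycline hypoxia. The groups did not overlap, but the increase (0.39 ± 0.11, limma adjusted p = 0.02) missed the threshold without vehicle normoxia replicate 2 (0.34, limma adjusted p = 0.0563) or without doxycycline hypoxia replicate 4 (0.31, limma adjusted p = 0.0509). SCD stood at 16.94, 17.00, 17.15 and 17.14 in vehicle normoxia and at 17.00, 16.94, 17.04 and 17.05 in doxycycline hypoxia. These ranges overlapped, and the difference of -0.05 had a 95% interval from -0.20 to 0.11 (limma adjusted p = 0.669). All SCD levels lay above 16, beyond what a 16-bit scanner can give, and whether the signal could still change there was not tested.

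Of 34 genes of fatty acid synthesis and uptake, 4 rose (11.8%) and 3 fell (8.82%, and 0 without doxycycline hypoxia replicate 1). ACSL1, which activates fatty acids to acyl-CoA, rose 1.7-fold (0.77 ± 0.08, limma adjusted p = 2.32e-05), and ELOVL2, an elongase, by 0.52 ± 0.08 (0.000412). In the cholesterol list 8 of 26 rose (30.8%, where 7.67% of all genes rose) and 2 fell (7.69%, where 13.6% fell). CYP51A1, a demethylase of sterol synthesis, rose by 0.57 ± 0.10 (0.00115) beside ABCA1, while PMVK, phosphomevalonate kinase, fell by 0.70 ± 0.14 (0.00258) and TM7SF2, a sterol reductase, by 0.23 ± 0.06 (0.00964). Of 35 genes of fatty acid oxidation, 3 rose (8.57%) and 7 fell (20.0%), near the shares of all genes (7.67% and 13.6%). HADH and ETFB, enzymes of mitochondrial β-oxidation, fell by 0.62 ± 0.09 (0.000257) and 0.57 ± 0.10 (0.00134), whereas the regulator PPARA rose by 0.53 ± 0.06 (3.11e-05). PPARGC1A, a coactivator, differed by 0.30 ± 0.04 (0.000272), but all its group means lay below the median level of all genes (4.89), and no detection call was used. The same limit holds for DUSP4, EGR1, TEK, CUBN, FCER1G and ITGAM. Ceramide genes gave 6 higher (18.2%) and 2 lower (6.06%) of 33, with a median of 0.13. KDSR, of de novo sphingolipid synthesis, had 9.84, 9.95, 9.97 and 9.93 in vehicle normoxia and 10.66, 10.52, 10.64 and 10.43 in doxycycline hypoxia, a non-overlapping 1.56-fold increase (0.64 ± 0.09, 0.000133). SGMS1, a sphingomyelin synthase, rose by 0.45 ± 0.09 (0.00227), and ORMDL2, a regulator that restrains serine palmitoyltransferase, fell by 0.44 ± 0.10 (0.00676).

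**Figure D2:**
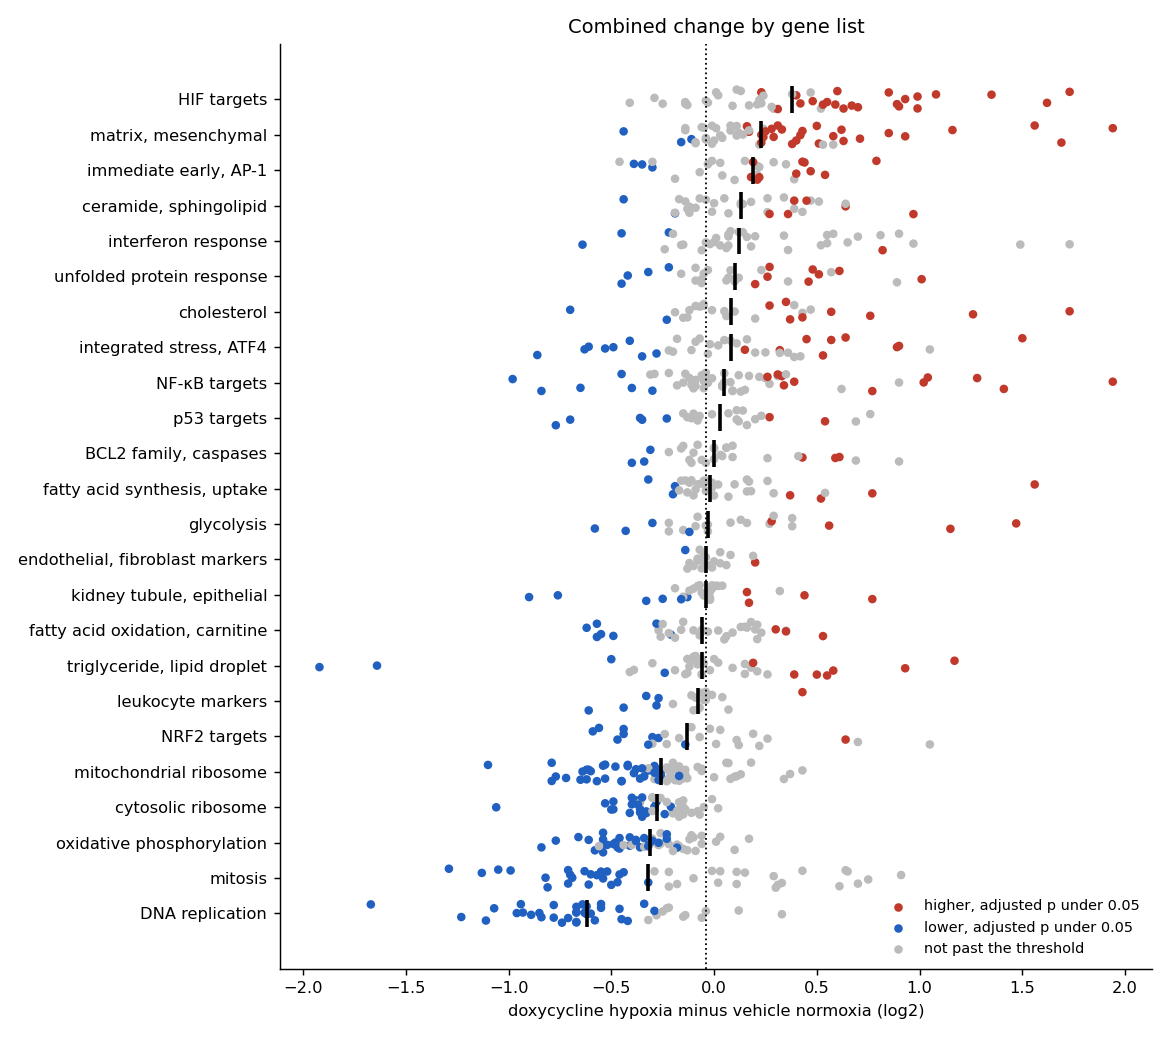
Combined change of each measured member (x axis, doxycycline hypoxia minus vehicle normoxia, log2) of 24 gene lists (rows, ordered by median), in red where higher and blue where lower at a limma adjusted p under 0.05 and in grey otherwise, with black bars at list medians and a dotted line at the median of all genes (-0.04). DNA replication (-0.62) lies at the low end and HIF targets (0.38) at the high end, and vertical jitter has no meaning.

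NF-κB target genes moved in both directions. Of 53 measured, 11 rose (20.8%, where 7.67% of all genes rose) and 6 fell (11.3%, where 13.6% fell), with a median of 0.05. Their mean level was 7.60 to 7.67 over the vehicle normoxia arrays and 7.74 to 7.83 over the doxycycline hypoxia arrays, without overlap. The study had chosen NF-κB targets for attention on these arrays, so the list is not independent evidence of a direction. For these cultured cells the paper reported enrichment of its NF-κB gene set with hypoxia, with DGAT loss and with both together. It described many of these mRNAs as rising step by step when the treatments were combined. No enrichment test was run here, and the list counted may differ from that set. The paper also reported enrichment of NF-κB targets in tumours and higher activity of a luciferase reporter, which these counts do not address. The number that rose was also unstable: it was 17 without vehicle hypoxia replicate 4, 7 without vehicle normoxia replicate 2 or doxycycline hypoxia replicate 3, and 6 without doxycycline hypoxia replicate 2. PTGS2, the inducible cyclooxygenase, had 4.21, 4.38, 4.31 and 4.24 in vehicle normoxia and 5.39, 5.34, 5.27 and 5.25 in doxycycline hypoxia, without overlap (1.02 ± 0.05, limma adjusted p = 1.7e-08). Chosen after their values were seen, the cytokine IL6 rose by 1.04 ± 0.08 (2.34e-06), the chemokine CXCL8 by 1.41 ± 0.21 (0.000245) and complement C3 by 1.28 ± 0.12 (5.61e-06). TNFAIP2 fell by 0.98 ± 0.10 (1.11e-05) and LCN2, the iron-siderophore carrier lipocalin 2, by 0.65 ± 0.07 (3.05e-05). NFKBIA, the feedback inhibitor IκBα, had 12.68, 12.51, 12.68 and 12.69 in vehicle normoxia and 12.65, 12.98, 12.89 and 13.29 in doxycycline hypoxia. The groups overlapped, and the difference of 0.31 ± 0.17 did not pass (0.197).

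Immediate early and AP-1 genes gave 10 higher (34.5%, where 7.67% of all genes rose) and 3 lower (10.3%, where 13.6% fell) of 29 (median 0.19). KLF6, a zinc-finger transcription factor, rose by 0.79 ± 0.10 (limma adjusted p = 5.66e-05) while at low levels DUSP4, a MAP kinase phosphatase, differed by 0.44 ± 0.08 (0.0016) and the transcription factor EGR1 by -0.39 ± 0.08 (0.0034). Interferon response genes showed 1 higher (2.7%) and 3 lower (8.11%) of 37, while 26 members had a change above 0 and the median was 0.12. Without vehicle hypoxia replicate 4 and doxycycline hypoxia replicate 4 together, 10 were higher and 2 lower, and with array weights 6 and 3. HERC5, a ligase for the ubiquitin-like ISG15, rose by 0.82 ± 0.19 (0.0067), and IRF1 and OASL fell by 0.45 ± 0.08 (0.000892) and 0.64 ± 0.16 (0.013). Under the methods' t-test HERC5 (adjusted p = 0.0747) and OASL (0.0541) did not pass. The list's mean level varied from 9.17 to 10.20 among the doxycycline hypoxia arrays and from 9.11 to 9.53 among the controls, so these ranges overlapped.

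Stress responses were mixed. In the unfolded protein response, 8 of 29 rose (27.6%, where 7.67% of all genes rose) and 4 fell (13.8%, where 13.6% fell). EIF2AK3, the ER stress kinase PERK, had 8.62, 9.16, 9.12 and 8.88 in vehicle normoxia and 10.15, 10, 10.04 and 9.63 in doxycycline hypoxia (1.01 ± 0.14, limma adjusted p = 0.000171). SEC24D, of COPII vesicles, rose by 0.51 ± 0.07 (0.000139), while the sensor ATF6 fell by 0.45 ± 0.09 (0.00315) and the translocon subunit SEC61B by 0.42 ± 0.10 (0.00784). Of 37 genes of the integrated stress response and ATF4, 9 rose (24.3%) and 8 fell (21.6%). Besides STC2, VLDLR, a lipoprotein receptor, rose by 0.53 ± 0.08 (0.000297), and SLC38A2, a neutral amino acid transporter named after its value was seen, by 1.5 ± 0.24 (0.000541). The decreases included WARS1, the tryptophanyl-tRNA synthetase (-0.86 ± 0.08, 5.09e-06), and ASNS, asparagine synthetase (-0.63 ± 0.08, 8.9e-05), and the number that fell was 5 without vehicle normoxia replicate 4 or doxycycline hypoxia replicate 2.

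DNA replication genes fell together. Of 43 measured, 32 fell and 0 rose, against 13.6% of all genes that fell, and the median change was -0.62. Leaving out any 1 array gave 26 to 33 decreases. Their mean level was 8.83 to 9.02 over the vehicle normoxia arrays and 8.15 to 8.57 over the doxycycline hypoxia arrays, without overlap. All 6 subunits of the MCM2 to MCM7 helicase fell, by 0.58 for MCM4 to 1.67 for MCM5. GINS1, of the GINS complex that activates this helicase, had 9.70, 9.62, 9.73 and 9.81 in vehicle normoxia and 8.46, 8.59, 8.65 and 8.86 in doxycycline hypoxia (-1.07 ± 0.12, limma adjusted p = 3.73e-05). The 11 members that did not pass included, named in the same way after their values were seen, CDC6 (-0.14), CLSPN (0.12) and RFC1 (0.33).

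Many replication genes carry sites for E2F, the factor that drives entry into S phase, and 5 promoters are shown for the position of such sites. They belong to replication genes with large decreases and a match within 100 bases of the start. MCM6 had 10.78, 11.16, 11.16 and 11.02 in vehicle normoxia and 9.59, 10.03, 9.61 and 9.98 in doxycycline hypoxia (-1.23 ± 0.16, limma adjusted p = 9.43e-05). GINS2 fell by 0.93 ± 0.17 (0.00167), MCM7 by 0.89 ± 0.15 (0.000644), PCNA, the sliding clamp of DNA polymerase, by 0.84 ± 0.12 (0.000225), and TYMS, thymidylate synthase, by 0.78 ± 0.11 (0.000177). The letters searched on both strands were TTTCCCGC, TTTCGCGC, TTTGCCGC and TTTGGCGC, and matches, which can overlap, are in capitals. The 100 bases before the annotated start (RefSeq, GRCh38.p14), 5′ to 3′ on the gene's strand, are at chr2:135876444-135876543 (minus) for MCM6, chr16:85688955-85689054 (minus) for GINS2, chr7:100101398-100101497 (minus) for MCM7, chr20:5126623-5126722 (minus) for PCNA and chr18:657553-657652 (plus) for TYMS.
MCM6: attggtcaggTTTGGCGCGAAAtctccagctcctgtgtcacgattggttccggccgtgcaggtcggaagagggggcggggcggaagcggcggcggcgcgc
GINS2: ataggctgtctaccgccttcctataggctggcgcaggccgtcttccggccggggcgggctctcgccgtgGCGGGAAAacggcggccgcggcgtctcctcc
MCM7: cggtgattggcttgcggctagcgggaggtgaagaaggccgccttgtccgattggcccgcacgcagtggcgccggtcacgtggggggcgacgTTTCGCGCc
PCNA: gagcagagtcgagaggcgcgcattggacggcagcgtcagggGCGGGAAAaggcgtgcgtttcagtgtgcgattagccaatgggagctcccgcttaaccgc
TYMS: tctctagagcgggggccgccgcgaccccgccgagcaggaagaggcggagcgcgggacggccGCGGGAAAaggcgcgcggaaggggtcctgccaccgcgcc
Within 250 bases before the start, 13 of 34 replication genes with an entry held such a site (38.2%), 11 of 25 that fell and 2 of 9 that did not pass, against 3.51% of the 13473 measured genes. Both motifs were chosen after the values were seen, and the matches say nothing of whether E2F or HIF was bound.

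**Figure D3:**
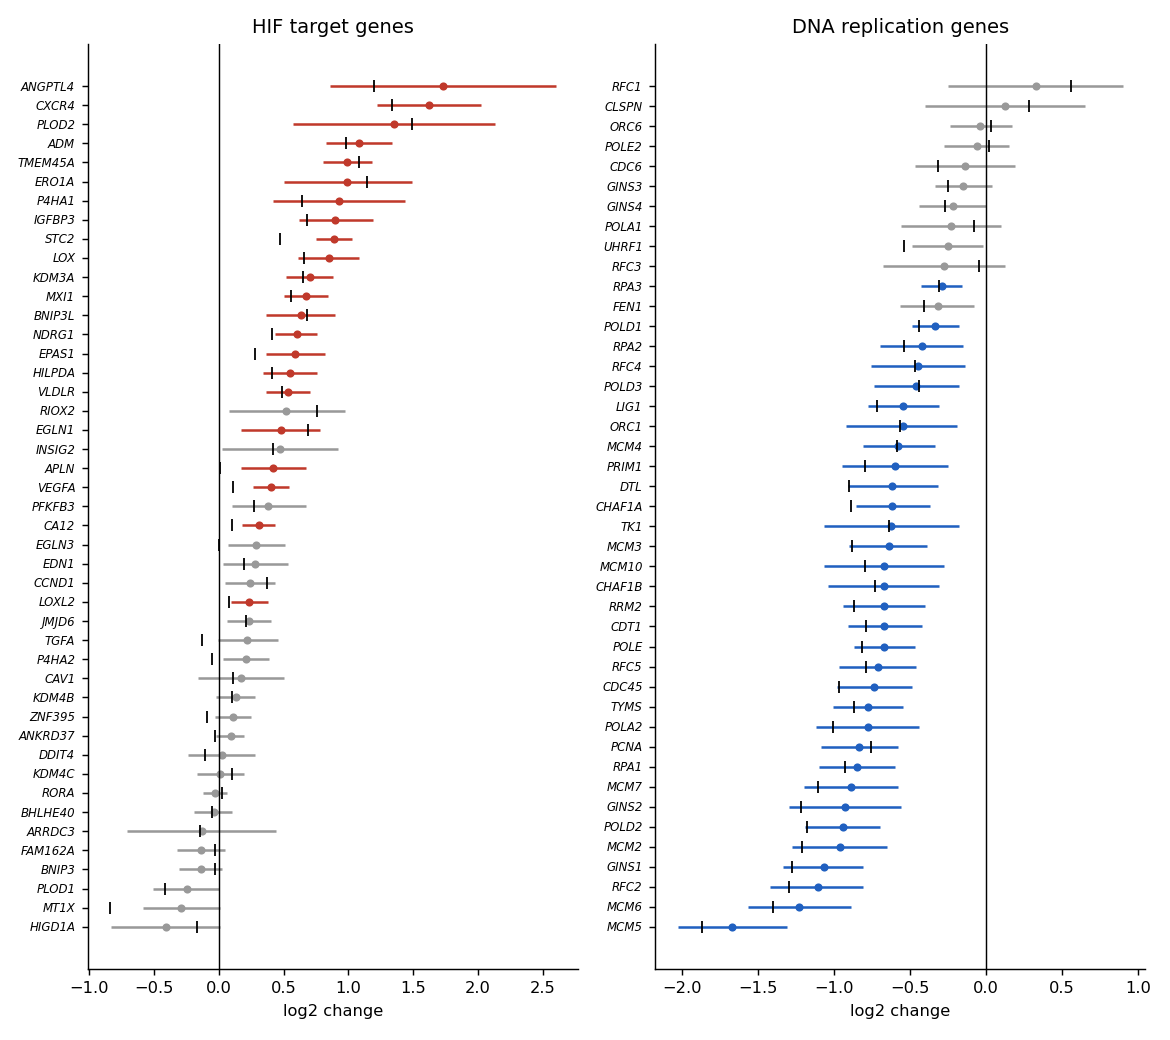
Combined change (dots, x axis, log2) with its 95% interval (lines) for the 45 measured HIF targets (left) and the 43 measured DNA replication genes (right), coloured red where higher, blue where lower and grey where not past the limma threshold, with black ticks at the sum of the single changes. For 22 HIF targets the dot is red and for none blue, and for 32 replication genes the dot is blue and for none red.

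Mitotic genes were less uniform in direction. Of 45 measured, 23 fell (51.1%, against 13.6% of all genes) and 0 rose, with a median of -0.32, but 16 had a change above 0. The methods' t-test called 11 of them lower, leaving out 1 array gave 17 to 24, and 5 were higher without vehicle hypoxia replicate 4 and doxycycline hypoxia replicate 4 together. KIF20A, a kinesin of cytokinesis, had 10.37, 10.46, 10.63 and 10.58 in vehicle normoxia and 8.71, 9.49, 9.06 and 9.63 in doxycycline hypoxia (-1.29 ± 0.16, limma adjusted p = 7.16e-05). CDCA8, the chromosomal passenger protein borealin, fell by 1.05 ± 0.14 (0.000116). At the other end CENPF, a kinetochore protein named after its value was seen, was 0.91 ± 0.65 higher (0.336), with arrays of 5.98 to 6.95 in vehicle normoxia and 6.15 to 8.33 in doxycycline hypoxia. Its groups overlapped, and its treated arrays of 8.29, 8.33, 7.15 and 6.15 were lowest where the axis score was lowest.

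In the lists of mitochondrial energy production and of both ribosomes the genes that passed were all lower, where 13.6% of all genes fell. For oxidative phosphorylation, 28 of 54 fell and 0 rose (median -0.31), with mean levels of 9.52 to 9.60 in vehicle normoxia and 9.18 to 9.32 in doxycycline hypoxia. ATP5PD, of ATP synthase, fell by 0.48 ± 0.06 (limma adjusted p = 8.34e-05) and NDUFB3, of complex I, by 0.61 ± 0.08 (8.9e-05). Of 71 mitochondrial ribosomal proteins, 33 fell, 0 rose and 38 did not pass (median -0.26), and 20 fell without vehicle normoxia replicate 3. MRPS7 had 11.29, 10.99, 11.28 and 11.25 in vehicle normoxia and 9.97, 10.10, 10.11 and 10.24 in doxycycline hypoxia (-1.10 ± 0.12, 2.12e-05), and MRPS17 fell by 0.77 ± 0.10 (7.52e-05). Of 45 cytosolic ribosomal proteins, 21 fell, 0 rose and 24 did not pass (median -0.28), among them RPS18 (-1.06 ± 0.17, 0.000625) and RPL24 (-0.38 ± 0.05, 0.000195). Ribosomal protein genes have many processed copies, which probe sets may share. With arrays centred on their medians these 3 lists still had 23, 27 and 18 decreases.

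Of 54 matrix and mesenchymal genes, 26 rose (48.1%, where 7.67% of all genes rose), 3 fell and 25 did not pass (median 0.23), with mean levels of 8.10 to 8.17 in vehicle normoxia and 8.40 to 8.52 in doxycycline hypoxia. THBS1, the matricellular thrombospondin 1, had 8.94, 9.06, 9.18 and 9.07 in vehicle normoxia and 10.64, 10.82, 10.67 and 10.88 in doxycycline hypoxia, a 3.22-fold increase with a wide gap (1.69 ± 0.16, limma adjusted p = 6.73e-06). COL5A1, a collagen chain, rose by 0.63 ± 0.06 (1.48e-05), and TNC, tenascin C, fell by 0.44 ± 0.10 (0.0051). Without vehicle normoxia replicate 1 and doxycycline hypoxia replicate 4, 18 members rose. Of the 20 endothelial and fibroblast markers 1 rose (5.0%, where 7.67% of all genes rose) and 1 fell (5.0%, where 13.6% fell). TEK, the angiopoietin receptor, was the higher one, at low levels (0.20 ± 0.05, 0.0089), and the list's mean level was 3.87 to 4.00 in vehicle normoxia and 3.86 to 3.93 in doxycycline hypoxia.

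Kidney tubule and epithelial genes gave 4 higher (14.3%) and 6 lower (21.4%) of 28, where 7.67% of all genes rose and 13.6% fell. The simple-epithelium keratins fell, KRT18 by 0.90 ± 0.10 (limma adjusted p = 2.58e-05) and KRT8 by 0.76 ± 0.13 (0.00116). HAVCR1, the kidney injury marker KIM-1, had a 1.7-fold increase (0.77 ± 0.09, 4.44e-05), and CUBN, an endocytic receptor of the proximal tubule, differed by 0.17 ± 0.03 (0.00323) at low levels. Of 19 leukocyte markers 1 rose (5.26%) and 5 fell (26.3%). ITGAX, an integrin chain of dendritic cells, rose by 0.43 ± 0.08 (0.00154), and FCER1G and ITGAM, of myeloid cells, differed by -0.44 ± 0.06 (0.000245) and -0.27 ± 0.04 (0.000659), with all group means below the median level of all genes. The leukocyte list's mean level was 4.42 to 4.56 in vehicle normoxia and 4.29 to 4.43 in doxycycline hypoxia. CLEC4E and IL7R, also known from immune cells, are not on that list, and the part of any other cell type in their increases was not tested.

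Survival and redox genes moved in both directions, where 7.67% of all genes rose and 13.6% fell. Of 24 p53 targets, 2 rose (8.33%) and 5 fell (20.8%). The decreases included TRIAP1, an inhibitor of apoptosis (-0.77 ± 0.09, limma adjusted p = 5.01e-05), and DDB2, of DNA repair (-0.70 ± 0.14, 0.00247). Of 28 genes of the BCL2 family and caspases, 3 rose (10.7%) and 3 fell (10.7%). The survival genes BCL2 and BCL2L2 rose by 0.59 ± 0.10 (0.00119) and 0.43 ± 0.08 (0.0014), while BCL2L1, which encodes BCL-XL, and the caspase CASP2 fell by 0.40 ± 0.09 (0.00395) and 0.31 ± 0.08 (0.0129). NRF2 targets gave 1 higher (3.85%) and 9 lower (34.6%) of 26 (median -0.13). PGD, of the pentose phosphate pathway, fell by 0.59 ± 0.08 (0.000207) and AKR1C2, a ketosteroid reductase, by 0.56 ± 0.08 (0.0002), though AKR1C genes are near-identical and their probes may be shared, while ABCC2, an efflux pump, rose by 0.64 ± 0.08 (7.55e-05).

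For each gene the combined change was then set against the sum of the change under doxycycline in normoxia and that under hypoxia with vehicle. The sum uses the same vehicle normoxia arrays as the combined change, so the test was made on their difference, the departure. No gene of 22411 departed from the sum at an adjusted p under 0.05 (limma, 0 genes, smallest adjusted p 0.643), and 1026 had an unadjusted p under 0.05 (4.58%). To say how closely the sums held, the 95% interval of each departure was compared with a margin of 1.5-fold (0.58 on the log2 scale). It lay inside the margin for 3858 of the 4772 genes that changed (80.8%), near the 81.8% over all genes. It reached beyond the margin for 914 and lay wholly beyond it for 0. The typical interval spanned 0.27 to each side, against a median combined change of 0.40 in size. No departure of any size passed the adjusted threshold. The margin of 0.58 was wider than that median change. For most of the changed genes a departure as large as the combined change itself could therefore lie inside it. The share of 80.8% thus bounds the size of the departures and cannot decide whether small changes were additive. The narrowest margin tried held 1712 of the 4772 genes.

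For several leading genes the sum was close. STC1 changed by 2.40 with doxycycline alone and by 0.90 with hypoxia alone, a sum of 3.30, and its departure was -0.04 (95% interval -0.40 to 0.31). IL7R had single changes of 2.51 and -0.17 and a departure of 0.00 (-0.29 to 0.30). ODC1 had single changes of -0.92 and -1.75, and its departure of 0.26 had an interval from -0.12 to 0.64 that reached past the margin. EPN1 (-0.03, from -0.42 to 0.36), CNN2 (-0.03, from -0.42 to 0.36) and MRPS7 (-0.06, from -0.41 to 0.29) stayed inside it. For CLEC4E the combined change fell short of a sum of 3.68 by 0.43 (interval of the departure -0.75 to -0.12), and for NT5DC3 the combined decrease was smaller than its sum of -1.95 by 0.43 (0.19 to 0.68). The intervals of PAQR5, PREX2, ANGPTL4 and EEA1 were wider than 2 units, which leaves their sums unmeasured at this precision.

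Gene lists differed in how many members had an interval inside the margin, and the same limit holds for lists with small changes. The median change was -0.28 for cytosolic ribosomal proteins and -0.31 for oxidative phosphorylation genes, both smaller in size than the margin. The interval lay inside the margin for all 45 cytosolic ribosomal proteins (100%), for 50 of 54 oxidative phosphorylation genes (92.6%) and for 28 of 45 HIF targets (62.2%), but for 24 of 43 replication genes (55.8%), 12 of 45 mitotic genes (26.7%) and 9 of 37 interferon genes (24.3%). The median departure was 0.02 for all genes and 0.11 for both HIF targets and replication genes. Interferon genes had a median departure of -0.48 (median sum 0.58, median combined change 0.12), with 4 of 37 at an unadjusted p under 0.05. Their mean level ran from 9.23 to 10.26 over the vehicle hypoxia arrays, which enter every sum. Genes of the integrated stress response had a median departure of 0.17, with 8 of 37 at an unadjusted p under 0.05 and 17 of 37 inside the margin (45.9%). VEGFA was 0.29 above its sum (0.09 to 0.49), and ACSL1 was 0.41 below (-0.66 to -0.16).

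The 12 departures named for a small p, 6 in each direction, are given as values, since none passed the adjustment. All 12 genes had a group mean above the median gene (4.89). Only the doxycycline hypoxia mean lay above it for PTGS2 (5.31), ZNF474 (5.09) and RTN4RL2 (5.05). For SNORD115-45 only the vehicle normoxia mean did (5.13). How far these low levels set the departures of those genes was not tested. Above the sum, STC2 had a combined change of 0.89 where the sum was 0.47 (departure 0.42, 95% interval 0.22 to 0.62), and PTGS2 one of 1.02 where the sum was 0.68 (0.34, 0.18 to 0.50). DDIT3, the stress factor CHOP, was 0.16 higher in the combination where the sum was -0.35 (0.52, 0.26 to 0.77). Its levels were 7.51, 7.68, 7.58 and 7.59 in vehicle normoxia and 7.76, 7.82, 7.74 and 7.71 in doxycycline hypoxia. ZNF474 (0.44), RTN4RL2 (0.32) and the small nucleolar RNA SNORD115-45 (0.99) completed this side. Below the sum, SLC9A9, a sodium-proton exchanger of endosomes, rose by 0.84 where the sum was 1.55 (-0.71, from -1.02 to -0.40), and MAP2K6, a kinase upstream of p38, by 0.50 where the sum was 1.12 (-0.62, from -0.92 to -0.32). RARRES1 fell by 0.34 where the sum was 0.22 (-0.56, from -0.78 to -0.35). CA2, carbonic anhydrase 2, had 7.73, 7.78, 7.76 and 7.73 in vehicle normoxia and 7.76, 7.68, 7.84 and 7.73 in doxycycline hypoxia, a difference of 0.00 where the sum was 0.44. FABP5P3 (-0.53) and RNU6-49P (-0.71) belong to families of near-identical copies, as does SNORD115-45, so their probes may read other genes too.

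**Figure D4:**
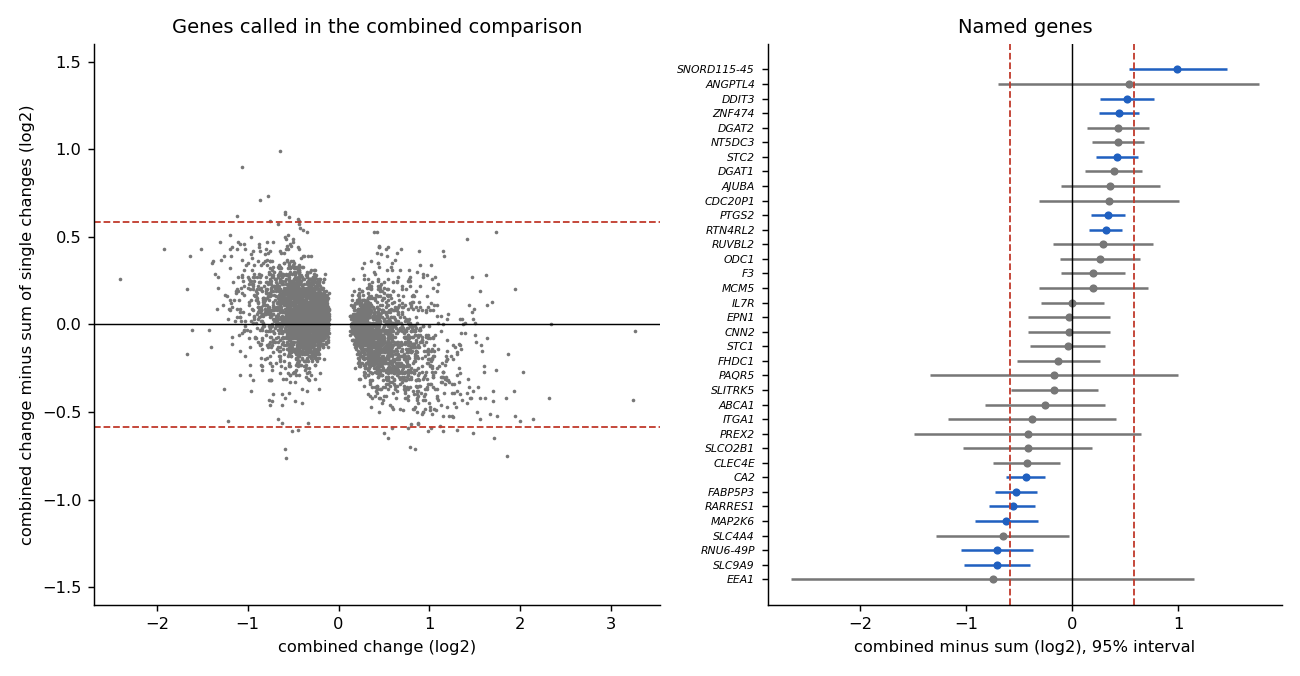
Left, departure (y axis, combined change minus the sum of the single changes, log2) against combined change (x axis, log2) for the 4772 genes that changed, with dashed red lines at the 1.5-fold margin. Right, departure with its 95% interval for the 24 genes with the largest combined changes (grey) and 12 named for a small departure p (blue). No gene passed the adjusted threshold, and the intervals run from narrow for PTGS2 (0.18 to 0.50) to wide for EEA1 (-2.65 to 1.15).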

How the data were processed

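Total RNA (250 ng per array) was labelled with biotin and hybridised to microarrays. The authors deposited 1 table of log2 values for the 16 arrays, made with RMA and Transcriptome Analysis Console (no version is given in the sources used). The methods name an array type only for tumour samples. The deposited log2 values had array medians of 3.91 to 4.11, and 590 probe sets lay above 16 on all arrays, so a step beyond RMA is possible and was not undone. Of 70523 probe sets, 23781 had 1 gene symbol in the platform table, 1543 several and 45199 none. Symbols were updated with RefSeq (GRCh38.p14), where 21497 matched by gene identifier and 2280 by symbol or synonym, and the brightest probe set was kept for the 528 genes with several, which left 22411 genes. No 2 arrays were identical.

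All 16 arrays entered a limma fit (version 3.58.1, under R 4.3.3) of 4 group means with an intensity trend. The combined contrast and its departure from the sum of the single changes were tested two-sided with Benjamini-Hochberg adjustment over all genes at 0.05, and the method was tested on simulated data. Samples were grouped by title.

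The comparison, the 24 gene lists and the rules were chosen with earlier results of these data known. Genes were named by a rule: NFKBIA, HILPDA, PLIN2, SCD and both DGAT genes, the 12 largest changes per direction among genes past the threshold with non-overlapping arrays and a brighter group above the median level, up to 2 members per direction of each list with the smallest adjusted p, and the 6 smallest departure p per direction. Of 111 genes so named, 8 list members whose call was lost without 1 array are not printed. Alternatives included a block for the replicate number, the omission of single arrays, pairs of arrays left out and a filter on dim genes. Others were the mean of probe sets, median centring, repeated quantile normalization, no trend, array weights, only the 8 arrays and the methods' t-test. A test for changes beyond 1.5-fold and other margins completed them. An axis covariate and the omission of vehicle normoxia replicate 1 with doxycycline hypoxia replicate 4 were added after seeing the data. The number of arrays limits the precision.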

Additional observations from a re-analysis of the deposited data

Results flagged for a closer look

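In 234 groups of 4 arrays (one gene in one group), 14 held an array whose gap to the nearest other took up most of the group's range (Dixon's test), and chance flags about 1 in 20 groups. In vehicle normoxia replicate 1, ITGA1 had 6.47 (others 7.14 to 7.21), SOAT1 11.62 (12.01 to 12.09), KLF6 9.01 (9.30 to 9.33) and SLC38A2 12.39 (13.01 to 13.08). In vehicle normoxia replicate 2, NFKBIA had 12.51 (12.68 to 12.69), MCM5 10.45 (10.75 to 10.79), AJUBA 11.33 (11.68 to 11.71), PFKL 8.40 (8.63 to 8.66), PGD 15.54 (15.80 to 15.82) and MRPS7 10.99 (11.25 to 11.29). Among doxycycline hypoxia arrays, RNU6-49P had 5.69 in replicate 1 (5.18 to 5.21), TM7SF2 4.82 (4.90 on the others) and C3 11.66 (11.86 to 11.87) in replicate 2, and ITGAX 6.96 in replicate 4 (6.66 to 6.67).

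Probe sets without a single gene symbol were not part of the gene comparison. When tested with the genes, 864 of 46742 were higher and 3100 lower in doxycycline hypoxia than in vehicle normoxia (limma with Benjamini-Hochberg adjustment). Together these were 8.48%, a signal outside the main measurement, where 21.3% of the genes passed in their own test. Whether the excess of decreases holds with arrays centred on their medians was not tested.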

How the results depend on the processing

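DGAT1 and DGAT2 stayed lower and past the threshold under every alternative run, with log2 changes of -1.69 to -1.56 and -1.95 to -1.81. Leaving out 1 array gave 3258 (without doxycycline hypoxia replicate 1) to 6101 (without vehicle hypoxia replicate 4) changed genes. Of these, 2555 to 5093, for the same arrays, had a departure inside the margin. With all arrays 70.5% of the changed genes fell short of their sum. With 1 array left out this share ran from 56.4% (vehicle hypoxia replicate 4) to 76.7% (vehicle hypoxia replicate 2). Array weights gave 8458 changed genes and 7438 inside the margin, and the narrowest margin tried held 1712. A test of whether the change exceeded 1.5-fold passed 59 genes. That is a stricter question than a measured change of at least 1.5-fold, which 617 higher and 564 lower genes had. The split of 36% higher among the changed genes became 46.2% with median centring and 46.5% with the axis score as a covariate. That covariate, added after seeing the data, gave 1 gene with a departure past the threshold, CDH6 (-0.85, limma adjusted p = 0.00845). SCD turned to 0.10 when quantile normalization was applied again (adjusted p = 0.145). With the replicate number as a replicate block 3801 genes changed. Same-numbered vehicle normoxia and doxycycline hypoxia arrays had deviations correlated at -0.57, 0.54, 0.03 and -0.06. Differently numbered arrays were not compared, so these values cannot decide whether the numbers pair the samples. The causes of these shifts were not tested. List counts could move by over 1.5 times when 1 array was left out, and not only those of 5 or fewer. Decreases of mitochondrial ribosomal proteins (33) ran from 20 to 40, and increases of NF-κB targets (11) from 6 to 17. Decreases of cytosolic ribosomal proteins (21) ran from 14 to 31. Those of replication genes (32) moved less, from 26 to 33. With 4 arrays per group no departure passed the adjusted threshold in the fit without that covariate, that of SNORD115-45 (0.99) included.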
